A study of Mus musculus with 15 samples.

Results

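Transcripts of 8 genes of DNA methylation and its removal, Dnmt1, Dnmt3a, Dnmt3b, Tet1, Tet2, Tet3, Idh1 and Idh2, were followed in mouse bone marrow with acute myeloid leukaemia (AML) and in normal marrow. They were taken by name from a table of 38315 genes, each name matched 1 row, and all 8 passed the filter on low values that left 18941 genes for testing. Total RNA was sequenced from 15 marrows: 7 AML marrows of transgenic mice carrying NUP98-NSD1, a fusion of a nucleoporin gene with a histone methyltransferase gene, together with FLT3-ITD, an internal tandem duplication in the receptor tyrosine kinase gene Flt3, and, from wild-type mice, 4 whole marrows and 4 lineage-negative marrows, in which cells with antigens of mature blood lineages are depleted. The promoters that drive the 2 leukaemia alleles, the strain and the age of the mice are not given in the labels used here. The labels number the samples of a group but do not state that each came from a separate animal, so p-values measure the spread between these samples.

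DNA methyltransferases place a methyl group on cytosine, mostly where it is followed by guanine (CpG). Dnmt1 copies the marks onto the new strand behind the replication fork, and Dnmt3a and Dnmt3b set them on unmethylated DNA. The TET dioxygenases oxidise methylcytosine as a step towards its removal, and need 2-oxoglutarate, which Idh1 makes in the cytosol and Idh2 in mitochondria from isocitrate. In human AML, DNMT3A, TET2, IDH1 and IDH2 are recurrently mutated; the values here are transcript levels and hold no information on mutations.

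The values are the authors' normalized counts, estimated reads per gene divided by 1 size factor per library. Estimated depth was 20268142 to 35101030 reads in AML, 20285447 to 28103961 in lineage-negative marrow and 11388176 to 17244802 in whole marrow. In the deposited values whole marrow lay low as a whole: the median log2 difference of all genes tested was 0.67 between AML and whole marrow, 0.59 between lineage-negative and whole marrow, and 0.02 between AML and lineage-negative marrow. After scaling by the trimmed mean of M values (TMM), a factor from the bulk of genes, these medians were −0.01, −0.09 and 0.03. Comparisons with whole marrow are therefore given under both scalings, and ratios of 2 genes within a library, which cancel the scaling, are given beside them; where a scaling is not named, values are as deposited. The cause of the shift was not tested. Whole marrow also carried reads over olfactory and vomeronasal receptor genes, which marrow is not known to express: 1.88 to 3.54 normalized counts per exonic kb, against 0.0969 to 0.137 in lineage-negative marrow and 0.120 to 0.996 in AML, where replicates 6 and 5, at 0.996 and 0.344, were highest. Defining markers followed the labels: the summed level of 8 mature neutrophil genes was 386784 to 1342283 in AML, 415924 to 1120824 in whole marrow and 961 to 16313 in lineage-negative marrow, while 8 stem and progenitor genes summed to 14550 to 19082 in lineage-negative marrow, 2979 to 5814 in AML and 1306 to 2445 in whole marrow. By the thresholds given below, 2 of the 8 stem and progenitor genes were higher in AML than in whole marrow and 2 lower. Of all genes 27.3% were higher and 11.3% lower. With TMM 1 of the 8 was higher and 3 lower, where 896 of all 18941 genes were higher and 3038 lower. In the deposited values the median log2 difference of the 8 was 0.14, against 0.67 for all genes. The marker lists that differed most between AML and whole marrow were erythroid and B cell: the sum of 12 erythroid genes was between 818989 and 2019622 in whole marrow, between 3275 and 34276 in AML and between 37781 and 69612 in lineage-negative marrow. The sum of 9 B cell genes was between 4129 and 8856 in whole marrow, 503 and 6429 in AML, and 312 and 550 in lineage-negative marrow. Relative to whole marrow, all 12 erythroid genes and all 8 tested B cell genes fell in AML, with median log2 differences of −7.29 and −2.86, and their part in the comparisons with whole marrow was not tested. In bulk marrow, a smaller share of a cell type and less RNA per cell cannot be told apart.

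Set against lineage-negative marrow, AML is compared with normal marrow depleted of mature cells, a depletion that the AML labels do not state. All 8 mature neutrophil genes were higher in AML here, with a median log2 difference of 7.39. Of the 8 stem and progenitor genes, 7 were lower and 1 higher. The part of cell composition in this comparison was not tested. Of the 8 DNMT, TET and IDH genes, 3 fell (Dnmt3b, Tet1 and Idh2) and 1 rose (Idh1), while of all genes tested 30.3% were called, 12.5% lower and 17.7% higher. A call required a limma adjusted p below 0.05 together with a log2 difference of 1 or more in size. Dnmt3b and Tet1 were 3.77-fold and 3.81-fold lower in AML, Idh2 was 2.22-fold lower, and Idh1 was 2.41-fold higher. Dnmt1 and Dnmt3a were also below every lineage-negative library in all 7 AML marrows but did not reach the fold required. The 4 calls, with their directions, were also obtained with quantile scaling, with each library left out in turn, and with TMM, under which 3337 of all 18941 genes were called higher and 2346 lower. Groups did not overlap for 6 of the 8 genes, 5 lower and 1 higher in AML, where 17.6% of all genes were lower without overlap and 17.0% higher. With TMM the same 6 stayed apart and Tet2 joined them, higher in all 7 AML marrows, where 17.8% of all genes were lower without overlap and 17.4% higher. The gap for Tet2 was narrow, between 1977 in the lowest AML library and 1948 in the highest lineage-negative one.

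**Figure D1:**
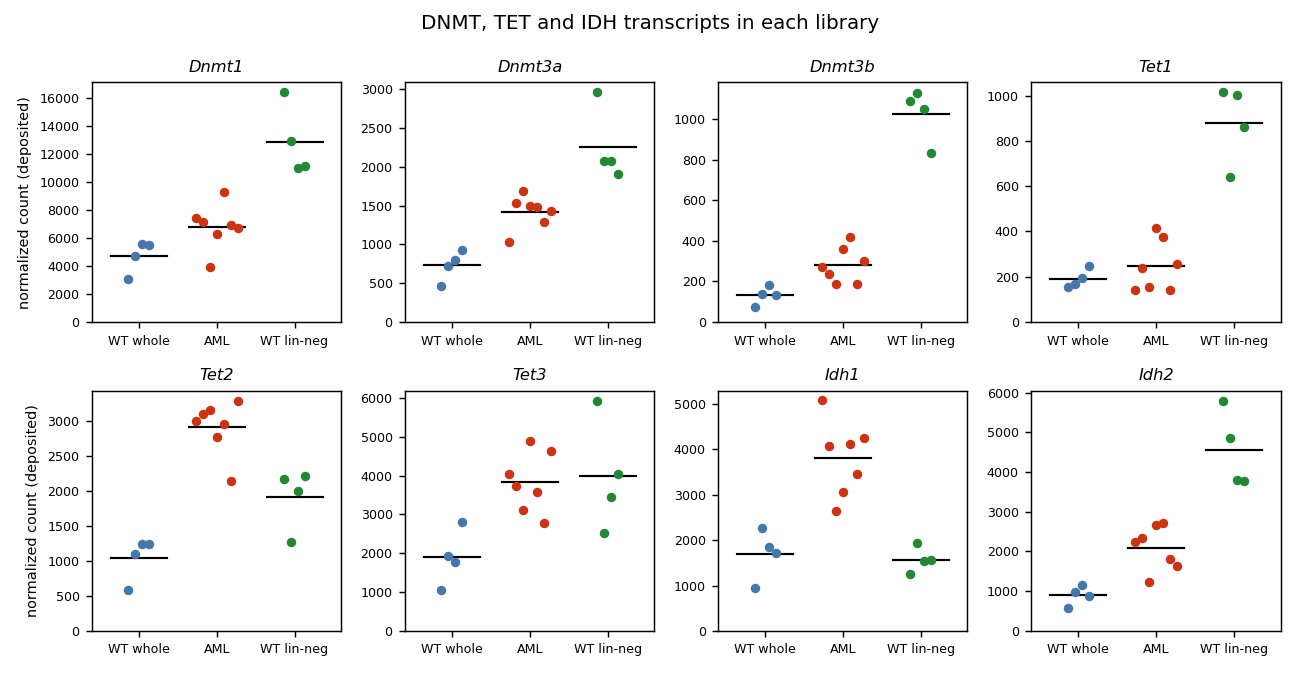
Deposited normalized counts of the 8 genes in each of the 15 libraries (points, y axis from 0) with the group mean (line), for wild-type whole marrow (n = 4), AML (n = 7) and wild-type lineage-negative marrow (n = 4). Dnmt3b, Tet1, Idh2, Dnmt1 and Dnmt3a lie highest in lineage-negative marrow, with no overlap with AML; Idh1 lies highest in AML; Tet3 overlaps between AML and lineage-negative marrow.

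Dnmt1 (ENSMUSG00000004099, protein coding, chromosome 9, 20818505 to 20871184, minus strand), the maintenance methyltransferase, had normalized counts of 16426, 12898, 11023 and 11131 in lineage-negative replicates 1 to 4. In AML it ranged from 3935 in replicate 3 through a median of 6892 to 9270 in replicate 5. Whole marrow replicates 1 to 4 had 3044, 4708, 5599 and 5475. Every AML library thus lay below every lineage-negative one, while AML replicate 3 lay inside the range of whole marrow and the other 6 above it in the deposited values; with TMM the ranges of AML, 3598 to 7694, and whole marrow, 5769 to 7068, overlapped. The log2 difference of Dnmt1 between AML and lineage-negative marrow was −0.94 (SE 0.23, limma adjusted p = 0.00210), which passed the p threshold but not the fold. Without AML replicate 5, lineage-negative replicate 3 or lineage-negative replicate 4 the difference passed both, at −1.02, −1.01 and −1.003. It also passed both with quantile scaling, at −1.17 (limma adjusted p = 6.58e-06).

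Because Dnmt1 works at the replication fork, it was set beside 17 DNA replication genes such as Mcm2 to Mcm7, the helicase that opens DNA for copying. Their summed level was 72274 to 87120 in lineage-negative marrow, 21048 to 49107 in AML and 20176 to 40605 in whole marrow, and within AML replicate 3 was lowest and replicate 5 highest, as for Dnmt1. Of the 17 genes, 12 fell in AML against lineage-negative marrow and none rose, where 12.5% of all genes fell and 17.7% rose. The 17 had a median log2 difference of −1.13, against 0.02 for all genes. Within each library, the log2 value of Dnmt1 minus the mean of the 17 was 2.02 ± 0.10 in AML (n = 7, SD), 1.90 ± 0.24 in lineage-negative marrow (n = 4, SD) and 1.61 ± 0.10 in whole marrow (n = 4, SD). Relative to these genes Dnmt1 in AML and in lineage-negative marrow overlapped, and every AML library, at 1.82 to 2.11, lay above every whole marrow, at 1.49 to 1.75. The part of cell division in the level of Dnmt1 was not tested. The same difference for Dnmt3b was −2.59 ± 0.33 in AML (n = 7, SD), −1.74 ± 0.17 in lineage-negative marrow (n = 4, SD) and −3.55 ± 0.17 in whole marrow (n = 4, SD), with no overlap between any of the groups.

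The sequence around the Dnmt1 start site is shown because it holds a motif of E2F factors, which act on replication genes. The motif, TTTGGCGC or its reverse complement GCGCCAAA on either strand, was found 33 bases past the start base in 1 of the 3 Dnmt1 windows of 300 bases (250 before and 50 after an annotated start) in RefSeq, build GRCm38.p6. It was in no window of the other 7 genes, and in 0.514% of 32851 windows of all genes; TTTCCCGC, a second form searched on both strands, was in no window of the 8 genes and in 1.07% of all. The match is in capitals and is a description of letters, not of binding.
Dnmt1 (GRCm38.p6, chr9:20952575-20952598, minus strand): gggcagcgTTTGGCGCgggctgtg

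Dnmt3a (ENSMUSG00000020661, protein coding, chromosome 12, 3856007 to 3964443, plus strand), one of the 2 enzymes that set new methylation, had 2962, 2073, 2072 and 1905 normalized counts in lineage-negative replicates 1 to 4. AML ranged from 1031 in replicate 1 through a median of 1487 to 1681 in replicate 3. In whole marrow the values were 470, 725, 800 and 926. In the deposited values the 3 groups did not overlap, with AML between the normal groups, but with TMM AML, at 866 to 1537, overlapped whole marrow, at 888 to 1161. The log2 difference from lineage-negative marrow was −0.66 (SE 0.19, limma adjusted p = 0.00889).

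Dnmt3b (ENSMUSG00000027478, protein coding, chromosome 2, 153491370 to 153529650, plus strand), the other de novo enzyme, had the widest span of group means of the 8 genes on the log2 scale. It had 1086, 1128, 1050 and 834 normalized counts in lineage-negative marrow, 186 to 419 with a median of 274 in AML, and 76.3, 141, 181 and 134 in whole marrow. AML replicates 6 and 3, at 186 and 188, lay just above the highest whole marrow, while with TMM AML, at 171 to 348, overlapped whole marrow, at 163 to 228. Its log2 difference between AML and lineage-negative marrow was −1.91 (SE 0.25, limma adjusted p = 3.84e-06), lower in 7 of 7 AML marrows. Dnmt3c, a rodent copy of Dnmt3b whose reads may be split with it, was named after its values were seen: it was at 7.18 to 11.6 normalized counts in lineage-negative marrow, listed at 0 in all 7 AML libraries and at 0 to 4.49 in whole marrow. The antisense genes Dnmt3aos and Dnmt3bos, also named after their values were seen, had at most 7.87 normalized counts in any library. The strand setting of the counting is not given in the sources used here, so reads of Dnmt3a and Dnmt3b and of these partners may be mixed.

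Within a library, the balance of the 2 de novo enzymes differed between the groups. The ratio of Dnmt3a to Dnmt3b counts was 2.73, 1.84, 1.97 and 2.28 in lineage-negative marrow, 3.55 to 8.97 with a median of 4.75 in AML, and 6.16, 5.15, 4.43 and 6.93 in whole marrow. All AML and whole marrow libraries lay above all lineage-negative ones, and AML overlapped whole marrow. Per exonic kb, Dnmt1 made up 86.3% ± 3.55 of the 3 DNMT transcripts in AML (n = 7, SD), 83.7% ± 1.38 in lineage-negative marrow (n = 4, SD) and 90.2% ± 0.244 in whole marrow (n = 4, SD). The share of Dnmt3b was 5.18% ± 1.16 in AML (n = 7, SD), 9.77% ± 1.41 in lineage-negative marrow (n = 4, SD) and 3.63% ± 0.488 in whole marrow (n = 4, SD). These shares rest on exonic lengths summed over all annotated transcripts, which may not be the transcripts used in marrow.

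Tet1 (ENSMUSG00000047146, protein coding, chromosome 10, 62640349 to 62744775, minus strand), a TET enzyme with a CXXC domain that binds CpG-rich DNA, had 1015, 641, 1001 and 862 normalized counts in lineage-negative marrow. In AML it ran from 143 in replicate 6 and 144 in replicate 1 through a median of 241 to 417 in replicate 4, and in whole marrow it had 153, 169, 193 and 248. AML lay below lineage-negative marrow in 7 of 7 libraries and overlapped whole marrow. The log2 difference from lineage-negative marrow was −1.93 (SE 0.29, limma adjusted p = 1.60e-05). Of the 8 genes Tet1 varied most within AML, with a highest to lowest ratio of 2.91 and an SD of 0.64 on the log2 scale. Its low level and long exons, 15457 bases, make it the member most open to reads of the receptor kind: their level per kb times this length came to 11.7% to 35.7% of the Tet1 count in whole marrow, at most 10.8% in AML and at most 0.234% in lineage-negative marrow.

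Tet2 (ENSMUSG00000040943, protein coding, chromosome 3, 133169440 to 133250900, minus strand), a TET enzyme whose loss expands blood stem cells in mice, had its highest mean in AML. AML ranged from 2143 in replicate 6 through a median of 3002 to 3300 in replicate 7. Lineage-negative replicates had 2173, 1269, 2006 and 2214 normalized counts, and whole marrow 591, 1095, 1251 and 1242. Of the AML libraries, 6 of 7 lay above all lineage-negative ones, replicate 6 being the exception. The log2 difference from lineage-negative marrow was 0.63 (SE 0.21, limma adjusted p = 0.0203), below the fold required. Without lineage-negative replicate 2 it was 0.45 (limma adjusted p = 0.119).

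Tet3 (ENSMUSG00000034832, protein coding, chromosome 6, 83339355 to 83436066, minus strand), known for oxidising the paternal genome after fertilisation, had 2768 to 4904 normalized counts in AML with a median of 3724. Lineage-negative marrow had 5935, 2516, 3454 and 4041, a range that enclosed that of AML. Whole marrow had 1059, 1921, 1784 and 2809, of which replicate 4 overlapped AML. The log2 difference from lineage-negative marrow was −0.02 (SE 0.25, limma adjusted p = 0.964), and leaving out single libraries moved it between −0.21 and 0.20.

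The composition of the TET transcripts can be read within each library. Per exonic kb, Tet1 was 3.76% ± 1.42 of the 3 TET transcripts in AML (n = 7, SD), 14.3% ± 2.16 in lineage-negative marrow (n = 4, SD) and 6.89% ± 1.54 in whole marrow (n = 4, SD). Tet2 was 41.7% ± 4.47 in AML (n = 7, SD), 28.1% ± 3.35 in lineage-negative marrow (n = 4, SD) and 33.3% ± 4.06 in whole marrow (n = 4, SD), and Tet3 was the largest part on average in each group, at 54.5%, 57.6% and 59.8%. The ratio of Tet1 to Tet2 counts was 0.0479 to 0.150 in AML with a median of 0.0771, 0.389 to 0.505 in lineage-negative marrow and 0.154 to 0.259 in whole marrow, so AML lay below both normal groups without overlap. With the receptor level subtracted from both genes, AML, at 0.0473 to 0.150, and whole marrow, at 0.126 to 0.186, overlapped, and the gap to lineage-negative marrow, at 0.389 to 0.504, remained. The ratio of Tet2 to Tet3 counts was 0.566 to 1.02 in AML, 0.366 to 0.581 in lineage-negative marrow and 0.442 to 0.701 in whole marrow, and AML overlapped both through replicate 4, the lowest in AML.

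**Figure D2:**
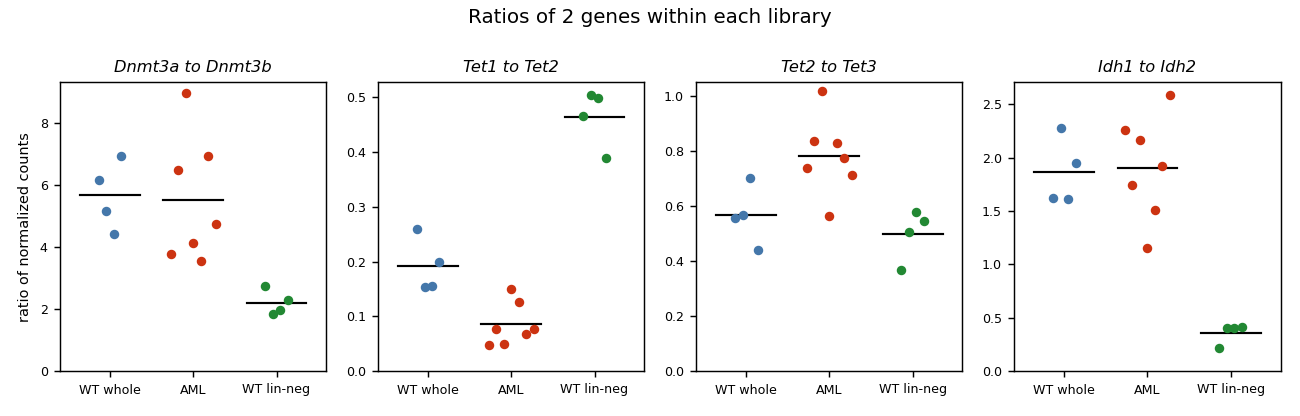
Ratios of the normalized counts of 2 genes in each of the 15 libraries (points, y axis from 0) with the group mean (line); a ratio within a library does not depend on the scaling of libraries. Lineage-negative marrow lies apart from AML for Dnmt3a to Dnmt3b, Tet1 to Tet2 and Idh1 to Idh2, and AML overlaps whole marrow for Dnmt3a to Dnmt3b, Tet2 to Tet3 and Idh1 to Idh2.

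Idh1 (ENSMUSG00000025950, protein coding, chromosome 1, 65197775 to 65225659, minus strand), the cytosolic enzyme, which also makes NADPH, had 1244, 1942, 1541 and 1553 normalized counts in lineage-negative marrow. AML ran from 2652 in replicate 3 through a median of 4067 to 5082 in replicate 1. Whole marrow had 949, 2259, 1848 and 1715. In the deposited values all 7 AML libraries lay above all 8 normal ones; with TMM all 7 lay above lineage-negative marrow, and AML, at 2425 to 4269, overlapped whole marrow, at 2026 to 2768. The log2 difference from lineage-negative marrow was 1.27 (SE 0.22, limma adjusted p = 0.000107).

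Idh2 (ENSMUSG00000030541, protein coding, chromosome 7, 79744594 to 79765140, minus strand), the mitochondrial enzyme, moved the other way. It had 5778, 4868, 3811 and 3782 normalized counts in lineage-negative marrow and 1225 to 2723 in AML, with a median of 2248 and replicate 3 lowest. Whole marrow had 586, 990, 1150 and 880. The 3 groups did not overlap in the deposited values, but with TMM AML, at 1120 to 2417, overlapped whole marrow, at 1103 to 1452. The log2 difference between AML and lineage-negative marrow was −1.15 (SE 0.23, limma adjusted p = 0.000375), lower in 7 of 7 AML marrows.

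The 2 IDH genes thus exchanged their shares between lineage-negative marrow and AML. Per exonic kb, Idh1 was 63.1% ± 6.39 of their sum in AML (n = 7, SD), 63.2% ± 3.86 in whole marrow (n = 4, SD) and 24.8% ± 5.35 in lineage-negative marrow (n = 4, SD). The ratio of Idh1 to Idh2 counts was 0.215, 0.399, 0.404 and 0.411 in lineage-negative marrow, 1.15 to 2.59 in AML with a median of 1.92, and 1.62, 2.28, 1.61 and 1.95 in whole marrow. AML and whole marrow overlapped, and neither overlapped lineage-negative marrow. Cell type markers also differed between these groups: 5 monocyte genes summed to 61210 to 126103 in AML against 17922 to 28551 in lineage-negative and 15537 to 33669 in whole marrow, and the part of cell composition in the IDH values was not tested.

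The first 250 bases of the RefSeq window before the start sites of 4 genes are shown for the pair that was lowest in AML against lineage-negative marrow, Dnmt3b and Tet1, and for 2 genes with their highest mean in AML, Tet2 and Idh1. The capitals mark CG, the pair of letters that DNMT and TET enzymes act on. In the 250 bases shown it occurs 21 times for Dnmt3b, 15 for Tet1, 51 for Tet2 and 18 for the first of 2 Idh1 starts. RefSeq windows were found for all 8 genes, 13 in all, and 12 of the 13 windows of 300 bases held more CG than the median of 7 over 32851 windows, the other being 1 of the Dnmt1 starts. The GC box letters GGGCGG or CCGCCC, on either strand, were in at least 1 window of each of the 8 genes. Both members that were lower and members that were higher in AML thus held them. Of all windows 35.7% held them, a share per window, which is not comparable with a count per gene of up to 3 windows. Methylation was not measured in these samples.
Dnmt3b (GRCm38.p6, chr2:153649199-153649448, plus strand): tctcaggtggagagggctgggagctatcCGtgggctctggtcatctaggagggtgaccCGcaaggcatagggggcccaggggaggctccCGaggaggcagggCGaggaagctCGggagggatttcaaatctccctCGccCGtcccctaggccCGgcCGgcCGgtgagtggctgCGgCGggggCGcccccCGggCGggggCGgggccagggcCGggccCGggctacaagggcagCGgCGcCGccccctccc
Tet1 (GRCm38.p6, chr10:62887325-62887574, minus strand): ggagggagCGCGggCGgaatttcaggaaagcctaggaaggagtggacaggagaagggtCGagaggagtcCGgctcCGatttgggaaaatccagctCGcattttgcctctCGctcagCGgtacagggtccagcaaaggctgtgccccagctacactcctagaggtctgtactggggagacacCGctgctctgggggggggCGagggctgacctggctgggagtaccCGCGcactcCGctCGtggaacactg
Tet2 (GRCm38.p6, chr3:133544391-133544640, minus strand): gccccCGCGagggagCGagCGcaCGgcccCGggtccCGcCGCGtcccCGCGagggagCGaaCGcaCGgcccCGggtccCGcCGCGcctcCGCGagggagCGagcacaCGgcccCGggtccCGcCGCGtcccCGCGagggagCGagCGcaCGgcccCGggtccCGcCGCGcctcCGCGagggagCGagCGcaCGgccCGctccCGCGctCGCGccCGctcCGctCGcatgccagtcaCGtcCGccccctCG
Idh1 (GRCm38.p6, chr1:65186480-65186729, minus strand): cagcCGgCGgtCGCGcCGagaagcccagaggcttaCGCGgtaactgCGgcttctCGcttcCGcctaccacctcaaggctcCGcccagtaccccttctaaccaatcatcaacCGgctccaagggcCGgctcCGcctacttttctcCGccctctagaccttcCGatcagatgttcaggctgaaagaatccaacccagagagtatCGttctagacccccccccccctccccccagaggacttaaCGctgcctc

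The comparison of AML with whole marrow sets leukaemic marrow against normal marrow of mixed maturity, and here the scaling decided the calls. In the deposited values 5 of the 8 genes were higher, Tet2, Idh1, Idh2, Dnmt3b and Tet3, by 2.89-fold, 2.31-fold, 2.31-fold, 2.11-fold and 2.10-fold, and none lower; of all genes 38.5% were called, 27.3% higher and 11.3% lower. With TMM scaling limma called 0 of the 8, where 20.8% of all 18941 genes were called, 896 higher and 3038 lower. At any size of difference, 3 of the 8 then had an adjusted p under 0.05, as did 37.8% of all genes, and the same number had an unadjusted p under 0.05; voom also called 0, with 3 at an unadjusted p under 0.05. In the deposited values whole marrow replicate 1 had the lowest value of every member in its group. Its total over all genes was also the lowest, at 10221001, against 17865234 to 19285222 in the other whole marrows. With TMM it was lowest for Dnmt3b, Tet2 and Idh1 alone, and highest for Tet1, at 328. Without this library 2 members were called in the deposited values, Tet2 and Idh2.

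Tet2 differed most from whole marrow: its log2 difference was 1.53 (SE 0.21, limma adjusted p = 1.11e-05), and 0.84 (SE 0.15, limma adjusted p = 0.000334) with TMM, with all 7 AML libraries above all 4 whole marrows in the deposited values. That of Idh1 was 1.21 (SE 0.22, limma adjusted p = 0.000150), and 0.51 (SE 0.15, limma adjusted p = 0.0115) with TMM. Idh2 had 1.21 (SE 0.23, limma adjusted p = 0.000196), and 0.51 (SE 0.19, limma adjusted p = 0.0403) with TMM. With quantile scaling Idh2 had 0.45 (limma adjusted p = 0.0513) and Idh1 0.46 (limma adjusted p = 0.0109). With the receptor level subtracted plus TMM, Idh1 and Idh2 each had 0.35 (limma adjusted p = 0.0697 and 0.161), and Tet2 had 0.74 (limma adjusted p = 0.00122). Dnmt3b and Tet3, at 1.08 and 1.07, had 0.39 and 0.38 with TMM, with limma adjusted p = 0.132 and 0.171. The call of Dnmt3b also went without AML replicate 5, at 0.97, and those of Dnmt3b, Tet3 and Idh1 without whole marrow replicate 1, at 0.84, 0.82 and 0.95.

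The other 3 genes were not called against whole marrow. Dnmt3a had a log2 difference of 0.99 (SE 0.19, limma adjusted p = 0.000259), just under the fold required, and 0.29 with TMM; without AML replicate 1, AML replicate 6, whole marrow replicate 3 or whole marrow replicate 4 it passed, at 1.06, 1.01, 1.05 and 1.12. Dnmt1 had 0.53 (SE 0.23, limma adjusted p = 0.0481) and turned to −0.17 with TMM (limma adjusted p = 0.479). Tet1 had 0.27 (SE 0.29, limma adjusted p = 0.417) and turned to −0.42 with TMM (limma adjusted p = 0.252). With the receptor level subtracted, the Tet1 mean was 242 ± 113 in AML (n = 7, SD) and 152 ± 50.8 in whole marrow (n = 4, SD), against 247 ± 112 (n = 7, SD) and 191 ± 41.6 (n = 4, SD) before, and its log2 difference was 0.59 (limma adjusted p = 0.0940), or −0.26 with TMM as well (limma adjusted p = 0.515). In none of these 4 forms did Tet1 pass the test. Groups did not overlap for 5 of the 8 genes, all higher in AML (of all genes 35.8% were higher and 7.88% lower without overlap), namely Dnmt3a, Dnmt3b, Tet2, Idh1 and Idh2. With TMM only Tet2 of the 8 did not overlap, at 1977 to 2898 in AML and 1263 to 1580 in whole marrow, where 10.9% of all genes were higher and 15.1% lower without overlap.

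**Figure D3:**
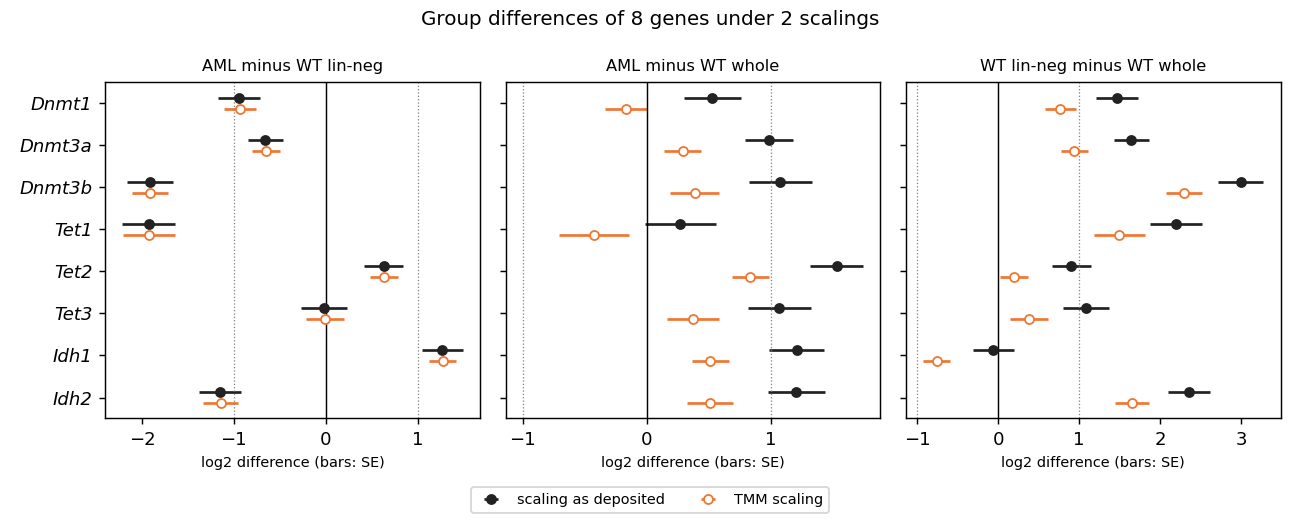
Log2 differences of the 8 genes with their standard errors in 3 comparisons, from deposited values (filled) and after TMM scaling (open); dotted lines mark a log2 difference of −1 and 1. Between AML and lineage-negative marrow the 2 scalings give nearly the same values, while both comparisons with whole marrow shift left under TMM, and Dnmt1 and Tet1 change sign in AML minus whole marrow.

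The normal groups were compared to show how these genes vary outside leukaemia. Besides maturity, the 2 groups differ in erythroid and B cell markers, with median log2 differences of −4.50 and −5.95, and in depth and receptor level. The parts of these in the differences cannot be told apart here. In lineage-negative marrow 6 of the 8 genes were higher than in whole marrow and none lower, where 50.3% of all genes were called, 33.1% higher and 17.2% lower. With TMM 3 were called, Dnmt3b, Idh2 and Tet1, all higher, where 35.7% of all genes were called, 2075 higher and 4694 lower. Dnmt3b differed by 2.99 on the log2 scale (SE 0.28, limma adjusted p = 1.15e-07), or 2.30 with TMM. Idh2 differed by 2.36 (SE 0.26, limma adjusted p = 5.02e-07), or 1.66 with TMM, and Tet1 by 2.20 (SE 0.32, limma adjusted p = 9.96e-06), which is 4.59-fold, or 2.83-fold with TMM. In the deposited values groups did not overlap for 6 genes, all higher in lineage-negative marrow (of all genes 41.1% were higher and 16.6% lower without overlap): Dnmt1, Dnmt3a, Dnmt3b, Tet1, Tet2 and Idh2. With TMM 5 of these stayed apart, Tet2 overlapped, and Idh1 was lower in lineage-negative marrow without overlap, at 1115 to 1666 against 2026 to 2768, where 23.6% of all genes were higher and 30.3% lower without overlap.

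Dnmt1, Dnmt3a and Tet3, at 1.47, 1.64 and 1.09, were called in the deposited values and had 0.77, 0.94 and 0.39 with TMM, all under the fold required. The call of Tet3 went without whole marrow replicate 1 or lineage-negative replicate 1, at 0.84 and 0.87. Tet2, at 0.90 (SE 0.24, limma adjusted p = 0.00295), was not called, and was 0.20 with TMM; it passed without whole marrow replicate 3 or 4 or lineage-negative replicate 2, at 1.01, 1.004 and 1.09. Idh1 differed by −0.06 (SE 0.25, limma adjusted p = 0.852), but by −0.76 (SE 0.17, limma adjusted p = 0.000943) with TMM. The comparisons share their control samples, so each is given by its own values.

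Some parts of the order of the group levels held under both scalings. Dnmt1, Dnmt3a, Dnmt3b, Tet1 and Idh2 were higher in lineage-negative marrow than in either other group, without overlap. Where AML stood against whole marrow was not settled for these 5 genes: the groups overlapped for all 5 with TMM, and the difference turned negative for Dnmt1 and Tet1. Tet2 was higher in AML than in whole marrow without overlap. Idh1 was higher in AML than in lineage-negative marrow without overlap, and its 2 normal groups overlapped in the deposited values alone. Tet3 overlapped between every pair of groups under both scalings.

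Other genes of the pathway were taken from lists. Among 7 tested partners of the DNMTs, 3 fell in AML against lineage-negative marrow (of all genes 12.5%) and 1 rose (of all genes 17.7%). The partners had a median log2 difference of −0.76. Those that fell were Cdca7 and Hells, which together remodel nucleosomes so that DNA can be methylated, and Uhrf1, which brings Dnmt1 to half-methylated DNA. Cdca7 had 1977 ± 593 normalized counts in AML (n = 7, SD) and 4445 ± 627 in lineage-negative marrow (n = 4, SD), and Hells 1155 ± 296 and 2450 ± 457 (n = 7 and n = 4, SD), the latter not called without AML replicate 3, at −0.97. The gene that rose was Dnmt3l, a DNMT relative with no catalytic activity that stimulates the de novo enzymes, at 21.5 ± 9.61 in AML (n = 7, SD) and 3.38 ± 1.91 in lineage-negative marrow (n = 4, SD), near the floor of 3 reads (1.96 to 2.72 normalized counts there). Against whole marrow limma called 0 of the 7 (1 at an unadjusted p under 0.05), and 0 with TMM or voom (4 and 3), with a median log2 difference of 0.28, or −0.37 with TMM. Of all genes 38.5% were called there, or 20.8% with TMM.

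Of the 8 methyl-CpG readers, proteins that bind methylated DNA, limma called 0 between AML and lineage-negative marrow (2 at an unadjusted p under 0.05), and 0 with TMM or voom (5 at an unadjusted p under 0.05 in each), and the median log2 difference was −0.09. Of all genes 30.3% were called in the deposited values. Of the 5 TET partners, 2 fell and none rose, where 12.5% of all genes fell and 17.7% rose. The median log2 difference of the 5 was 0.47, against 0.02 for all genes. Dcaf1, a subunit of a ubiquitin ligase, fell by 1.56 on the log2 scale (SE 0.20, limma adjusted p = 2.51e-06). Cxxc5, a CpG-binding protein, fell by 1.13 (SE 0.32, limma adjusted p = 0.00726), and was not called without AML replicate 6, at −0.94. Against whole marrow Cxxc4 and Wt1 were called lower in AML, but they had only 36.3 ± 19.8 and 12.7 ± 2.42 normalized counts in whole marrow (n = 4 each, SD) and neither gene reached the minimum for testing once the receptor level was subtracted. In the 13 genes of base excision, which replaces the oxidised base, 3 rose and 2 fell against lineage-negative marrow, near the 17.7% higher and 12.5% lower of all genes. Apex1, which cuts the strand at a site without a base, fell by 1.58 (SE 0.21, limma adjusted p = 3.57e-06), and Gadd45b, a stress-response gene linked to demethylation, rose by 1.76 (SE 0.21, limma adjusted p = 1.16e-06). Parp1, which marks strand breaks, fell by 1.08, and the call was lost without lineage-negative replicate 1, at −0.95. Neil2, at 11.5 ± 9.65 in AML (n = 7, SD) and 2.79 ± 2.12 in lineage-negative marrow (n = 4, SD), was no longer called with TMM, quantile scaling, voom, a pseudocount of 5 or no filter, nor without AML replicate 1, 3 or 6 or lineage-negative replicate 2 or 4, at 1.28 to 1.53.

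The methyl donor cycle, which makes S-adenosylmethionine for the DNMTs, was the list with the lowest median among the 7 pathway lists in AML against lineage-negative marrow. Of 15 genes tested, 8 fell and 1 rose, where 12.5% of all genes fell and 17.7% rose. The median log2 difference of the list was −1.21, against 0.02 for all genes. Mthfd1, a folate enzyme that interconverts carriers of single carbons, fell by 2.83 (SE 0.20, limma adjusted p = 1.15e-09), from 5599 ± 537 in lineage-negative marrow (n = 4, SD) to 800 ± 172 in AML (n = 7, SD), in 7 of 7 AML marrows. Adk, which removes the adenosine that the cycle produces, was 2.83-fold lower (limma adjusted p = 7.16e-07). Against whole marrow 4 of the 15 were called higher and none lower, where 27.3% of all genes were higher and 11.3% lower. With TMM 1 of the 15 was higher and 1 lower, where 896 of all 18941 genes were higher and 3038 lower. Of the DNA replication genes given above, 12 of 17 also fell in AML against lineage-negative marrow, and their part in these values was not tested.

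Enzymes that make or use 2-oxoglutarate showed few calls against lineage-negative marrow. Of 26 tested, 2 rose and 2 fell, where 17.7% of all genes rose and 12.5% fell. The median log2 difference of the 26 was −0.39. Glud1, glutamate dehydrogenase, which makes 2-oxoglutarate from glutamate, rose by 1.12 (SE 0.21, limma adjusted p = 0.000214), to 8391 ± 1303 in AML (n = 7, SD) from 3841 ± 372 in lineage-negative marrow (n = 4, SD), and was not called with quantile scaling, at 0.92. It was also called higher than in whole marrow, by 1.58, which was 0.88 with TMM. Idh3a, a subunit of the NAD-dependent mitochondrial isocitrate dehydrogenase, fell by 1.26 (SE 0.21, limma adjusted p = 6.15e-05). Adhfe1, which rose by 1.39, had 10.3 ± 5.64 normalized counts in AML (n = 7, SD) and 3.03 ± 1.09 in lineage-negative marrow (n = 4, SD), near the floor, and was not called with a pseudocount of 5 or quantile scaling, at 0.86 and 0.78. Against whole marrow 13 of the 26 were called higher and none lower in the deposited values, where 27.3% of all genes were higher and 11.3% lower. With TMM none of the 26 was higher and 1 was lower, where 896 of all 18941 genes were higher and 3038 lower.

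**Figure D4:**
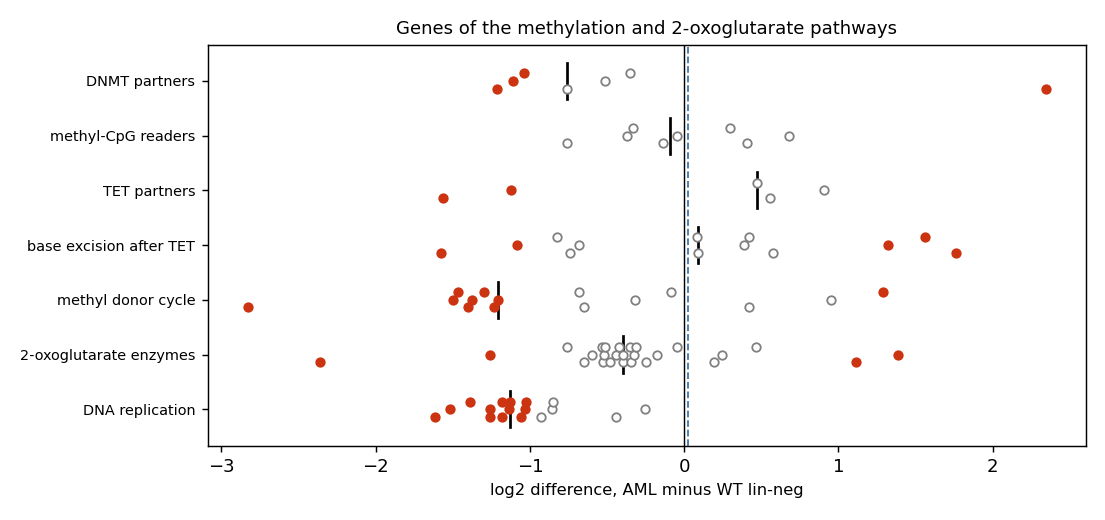
Log2 difference between AML and lineage-negative marrow for each tested gene of 7 lists (points; filled, called), the median of each list (black bar) and of all genes tested (dashed line). The methyl donor cycle and DNA replication lists have medians of −1.21 and −1.13, and the methyl-CpG readers have no called gene.

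For each of the 8 genes, the 3 genes of most similar profile were found by the root mean square difference of mean-centred log2 values over the 15 libraries, among 10401 genes whose average reached 100 normalized counts. This distance cancels the scaling of libraries and is a description. Nearest to Dnmt1 were Chaf1a, a subunit of the histone chaperone that acts at replication forks, Supt16, of the FACT histone chaperone, and Mcm5, at 0.130, 0.133 and 0.147, where the SD of Dnmt1 itself was 0.657. Dnmt3a was followed by Mphosph8, a reader of histone H3 methylation, Rabl6 and Sugp2, at 0.141 to 0.160. Nearest to Dnmt3b were Egfl7, an endothelial and progenitor secreted protein, Nynrin and Nme4, at 0.194 to 0.244, with an SD of 1.22 for Dnmt3b. Tet1 had no near match: Pank1, Rsad1 and Zfp704 were at 0.319 to 0.320, the largest distances of the 8 genes. Tet2 was followed by Cplane1, Mycbp2 and Dennd4b, at 0.140 to 0.164, and Tet3 by Dvl3, Taok2 and Gatad2b, at 0.122 to 0.150. Idh1 had Eif4e3, Spg21 and Capza2, at 0.162 to 0.173, and Idh2 had Uck2, a pyrimidine salvage enzyme, Tsfm, a mitochondrial translation factor, and the pseudogene Impdh2-ps, at 0.168 to 0.179.

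Among the 7 AML marrows the members did not vary together in 1 direction. Replicate 3 was lowest for Dnmt1, Idh1 and Idh2 and highest for Dnmt3a, so that its ratio of Dnmt3a to Dnmt3b, 8.97, was the highest of all 15 libraries. Replicate 5 was highest for Dnmt1, Dnmt3b and Idh2, and had the highest sum of stem and progenitor markers in AML, 5814. Replicate 6 was lowest for Dnmt3b, Tet1, Tet2 and Tet3. With TMM replicate 3 kept its place for Dnmt1, Idh1, Idh2 and Dnmt3a, but replicate 5 was highest for Dnmt1 and Dnmt3b alone and replicate 6 lowest for Tet2 and Tet3 alone. The markers of other cells differed as well: B cell genes summed to 6429 in replicate 3 and 503 to 3049 in the other AML marrows, erythroid genes to 34276 in replicate 3 against 3275 to 20659, and T cell genes ranged from 765 to 3501, their part in the spread not being tested. On the log2 scale the SD within AML was smallest for Tet2, at 0.21, and Dnmt3a, at 0.23.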

How the data were processed

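Total RNA of 15 mouse marrows had been sequenced from TruSeq stranded libraries, per the labels' protocols. The values are a normalized signal: per the name of the deposited table, estimated reads per gene were scaled by the authors with DESeq2 size factors (poscounts), 1 for each library. STAR, Partek and DESeq2 and the build mm10 are named in the submitters' processing notes without versions; the counter and its strand setting are not given in the sources used here. None of the 8 genes starts where the GRCm38 annotation has it, though all 8 have the same length, so gene coordinates are printed as in the table, its build unsettled; annotation M21 was used for exonic lengths alone.

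Of values under 20 times the value of 1 read, 82.2% to 87.1% per library were whole multiples of it (tolerance 0.02), so whole reads were not recovered and no count test was run. Depth is the total divided by that value; the floor of 3 reads covers counting error only. Genes with at least 10 normalized counts in at least 4 samples entered 1 limma fit of 3 group means (limma 3.58.1, R 4.3.3). The fit used log2 of the value plus 1, a mean-variance trend, two-sided tests and Benjamini-Hochberg over 18941 genes. The procedure was also run on simulated counts with 1 spread setting for all genes and no shift of whole marrow. That run was read for AML against lineage-negative marrow alone, so it does not bear on the comparisons with whole marrow. A fold change is on the scale of log2(value + 1). TMM was written in R. The receptor level is the count per exonic kb of 1750 olfactory and vomeronasal receptor genes.

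Members and lists were chosen with earlier results of these data known. From each list and comparison the genes eligible for naming were the 2 highest and 2 lowest called genes with a mean above 3 normalized counts; Uhrf1, outside this rule, was named after its values were seen. Some eligible genes are not reported here. Likeness passed over genes without a symbol of their own. The alternatives were pseudocounts of 0.1 and 5, no filter or a mean of at least 50, TMM, quantile scaling, voom, 2 groups alone, a robust variance, replicate number as a block and each library left out. Subtracting the receptor level, and leaving out AML replicates 5 and 6, were chosen after seeing the data.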

Additional observations from a re-analysis of the deposited data

Results flagged for a closer look

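Of the 24 combinations of gene and group examined for a library far from the rest, 1 stood out: Tet2 in AML replicate 6, at 2143 normalized counts, where the gap to the nearest AML library took 0.598 of the range of the 7 log2 values. Chance flags about 1 in 20 such groups. This library had the highest receptor level of the 7, 0.996 normalized counts per exonic kb, which times the Tet2 exons came to 0.784% of its Tet2 count.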

How the results depend on the processing

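The number of the 8 genes called in AML against lineage-negative marrow was 4 or 5 under every alternative run, 4 to 5 with each library left out. Against whole marrow, AML had 5, but 0 with TMM, with quantile scaling, with voom on estimated reads and with the receptor level subtracted plus TMM, and 2 to 6 with each library left out. Lineage-negative against whole marrow had 6, but 3 with TMM, with voom and with the receptor level subtracted plus TMM, and 5 to 7 with each library left out; quantile scaling gave 4. In AML against whole marrow, with TMM, quantile scaling, voom and subtraction plus TMM, Dnmt1 turned to −0.17, −0.23, −0.17 and −0.33, and Tet1 to −0.42, −0.51, −0.36 and −0.26. Tet3 in AML against lineage-negative marrow turned to 0.036 with the block, to 0.086 without AML replicates 5 and 6, and ranged from −0.21 to 0.20 with each library left out. Idh1 between the normal groups ranged from −0.31 to 0.10 with each library left out. The cause of these moves was not tested. Of the 91 pathway genes tested, those called changed direction in no comparison with TMM, but of all 91, called or not, 33 turned in AML against whole marrow, 9 in lineage-negative against whole marrow and 0 in AML against lineage-negative marrow. The ratios within libraries moved by less than 1 SD with pseudocounts of 0.1 and 5. These pseudocounts are small beside the lowest count of any member, 76.3, so little movement was possible. With the receptor level subtracted, the Tet1 to Tet2 ratios of AML and whole marrow overlapped, as given above.

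Replicate numbers are title numbers: deviations of same-numbered libraries correlated at −0.29 to 0.17 over 12 pairs, 2 of them above 0.1, and 2 or 3 of 8 libraries per comparison correlated best with their own number. With replicate number as a block, which drops AML replicates 5 to 7, the counts were 5, 5 and 6, and Dnmt1 joined the calls of AML against lineage-negative marrow, at −1.08 (limma adjusted p = 0.0137). The shallower whole marrow libraries, with 11388176 to 17244802 reads and raised receptor levels, limit low genes such as Tet1 most.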
